A study of Mus musculus with 2 samples.

Results

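The SLURP and Ly6 proteins share the LU domain, a small fold of finger-like loops held by disulphide bonds, which is also found in the urokinase receptor and in snake toxins that act on acetylcholine receptors. Most members are tethered to the outer cell surface by a glycosylphosphatidylinositol (GPI) anchor, while SLURP1 and SLURP2 are secreted by keratinocytes and act on acetylcholine receptors. In humans, loss of SLURP1 causes mal de Meleda, a keratoderma of palms and soles. The genes followed here are *Slurp1*, *Lypd3*, *Lypd5*, *Ly6a*, *Ly6c1*, *Ly6d*, *Ly6e*, *Ly6k*, *Ly6g6c* and *Ly6g6d*, taken as all probes other than controls that carry one of these gene names in the scanner output. The rule found 11 probes for the 10 genes, among 39429 probes for 30139 genes on the array, and *Ly6c1* had a pair of probes. The genes were chosen with their differences between the genotypes known, so the values below are a description.

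Total RNA was taken from the skin of newborn C57BL/6N mice at postnatal day 0. One array was hybridized with RNA of *Pnpla1*+/+ (wild-type, WT) skin and one with RNA of *Pnpla1*-/- (knockout) skin, each pooled in equal amounts from 6 animals. The knockout descends from the *Pnpla1* tm1a(KOMP)Wtsi allele after removal of its *LacZ* and *Neo* cassettes and is a knockout in all tissues, and littermates served as wild type. With 1 array per genotype there was no replicate and no test between genotypes, array and genotype cannot be told apart, and each difference describes these 2 pools. The pools are labelled skin, called epidermis in part of the deposited description, in which fewer cells of a type and less RNA per cell cannot be told apart.

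On both arrays the keratinocyte genes *Krt5*, *Krt14*, *Krt1*, *Krt10* and *Lor* were well above background, as were the fibroblast gene *Col1a2* and the muscle genes *Acta1* and *Myh8*, so the pools held more than epidermis. Intensities are given as deposited. Differences are log2 of *Pnpla1*-/- over WT after each array was divided by its 75th percentile, which was 2108 for WT and 1734 for *Pnpla1*-/-. Probes bind with unequal strength, so the intensities of different probes, and sums over them, do not rank genes by abundance. Among 309 probes with at least 8 spots on each array, the median technical SD of such a difference was 0.08, which holds no variation between mice. The error given with an intensity (±) is that of the scanner software for 1 spot and covers the measurement on the array only. For bright spots it is a nearly fixed share of the intensity.

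The targeted gene itself, *Pnpla1*, gave 579 in WT and 114 in *Pnpla1*-/- skin, or -2.07 on the log2 scale, and the knockout signal was above background. The X-linked *Xist* was at 1.12 at its brighter probe and 1.31 at the other, and the Y-linked *Ddx3y* and *Eif2s3y* were each at -2.19. *Uty* and *Kdm5d*, also Y-linked, were well above background in WT skin only, with bounds of -1.30 (brighter probe) and -0.01. The mix of sexes in the pools cannot be told apart from genotype, and the part of the sex of the pups in the results was not tested.

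The probes that the values rest on are 60 bases long. The first or last 30 bases are shown, in the sense of the transcript, for *Slurp1* and its partner *Slurp2*, the neighbours *Ly6g6d* and *Ly6g6c*, the highest of the 10 genes *Ly6e*, both *Ly6c1* probes and *Gml*, because the results below turn on them. Capitals mark AATAAA, the signal for cleavage and polyadenylation near the end of a transcript.
Slurp1, last 30 bases: gtccaccaagcttgtggaaAATAAAATAAA
Slurp2, last 30 bases: ttctgaatgaagtcctgtgtaaatccactg
Ly6g6d, last 30 bases: ttgatgaactattctagagaggactgtaaa
Ly6g6c, last 30 bases: tatcttgagaAATAAAcatcagtgtctaat
Ly6e, last 30 bases: ggaggctgcccatggaggactgccacccct
Ly6c1, brighter probe, first 30 bases: tattatagtatcaccatccacacataagta
Ly6c1, dimmer probe, first 30 bases: agcagttacctgccgcgcctctgatggatt
Gml, brighter probe, first 30 bases: gaaccttcggctgctctatgtctacaagca
The *Slurp1* probe holds AATAAA from base 50 and again, overlapping by a base, from base 55, and the *Ly6g6c* probe holds it from base 41. These are 2 of the 11 probes, and 12.6% of all probes on the array hold the motif. The longest run of bases shared between a probe of the 10 genes and a probe of another family gene was 10 of 60, over 594 pairs compared. Binding of a probe to the transcript of another family gene was not examined, and the *Ly6a*, *Ly6c1* and *Ly6i* genes are close in sequence.

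*Slurp1* had by far the largest difference of the 10 genes. On chromosome 15 of mm9 (minus strand, probe from 74557085 to 74557144, transcript NM_020519), its intensity was 3575 ± 358 in WT and 109 ± 12.2 in *Pnpla1*-/- skin. After scaling it was 26.9-fold lower in *Pnpla1*-/- skin, a log2 difference of -4.75 ± 0.22 by the errors of both spots. The probe was well above background on both arrays, where the dimmest spot so marked in *Pnpla1*-/- skin had an intensity of 21.7. Of 22374 genes with a difference or a bound, 4 lay below *Slurp1*. The gene had 1 probe with 1 spot, so no other measurement of it exists on these arrays. Under 12 other ways of processing, the difference ran from -5.17, centred on spike-in RNA added to each sample, to -4.05, with normexp, a model-based background correction.

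The other genes of the set differed far less, and not in 1 direction. With *Slurp1*, *Ly6g6d* was at least 2-fold lower, which makes 2 of 10 genes, beside 3.04% of all genes with a difference. *Ly6e* alone was at least 2-fold higher, 1 of 10, beside 6.7% of all genes. Those 3 genes stand beside 9.74% of all genes changed at least 2-fold either way. The other 7 lay above 0 by less than 2-fold, but *Ly6a*, *Ly6d* and *Ly6g6c* lay below 0 with spike-in centring and *Ly6k* under 5 of the 12 other settings. The median over the 10 genes was 0.39, against 0.00 over all genes, for which the 5th and 95th percentiles were -0.80 and 1.20. As the set was chosen on this contrast, nothing is read from these shares.

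**Figure D1:**
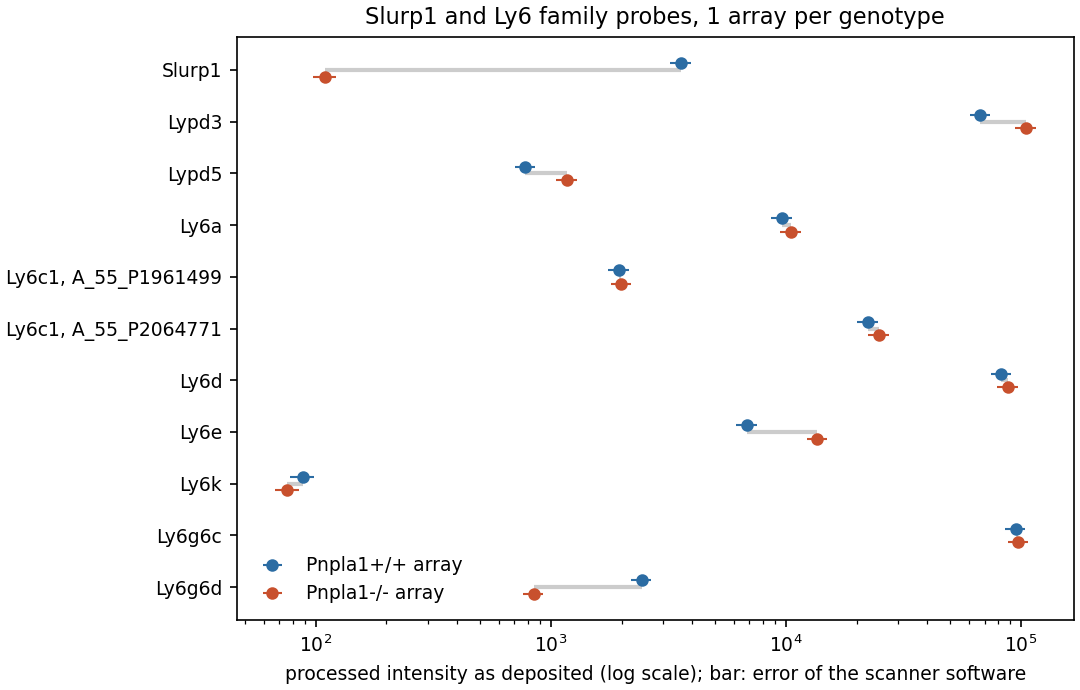
Processed intensity as deposited (x axis, log scale) of the 11 probes in *Pnpla1*+/+ (blue) and *Pnpla1*-/- (orange) skin, with bars for the error of the scanner software and 1 spot per point. *Slurp1* was at 3575 and 109, while *Ly6d* and *Ly6g6c* had nearly the same intensity on both arrays.

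*Lypd3* encodes C4.4A, a GPI-anchored glycoprotein of suprabasal keratinocytes that is related to the urokinase receptor. Its intensity was 67221 ± 6722 in WT and 105010 ± 10501 in *Pnpla1*-/- skin (chromosome 7, plus strand, probe from 25425989 to 25426048). This was 1.90-fold higher after scaling, a log2 difference of 0.93 ± 0.20, just short of 2-fold. *Lypd5*, a GPI-anchored relative on the same chromosome (plus strand, 25138766 to 25138825), had intensities of 779 ± 78.1 and 1172 ± 117, a difference of 0.87 ± 0.20. Both stayed above 0 under all 12 other settings, with lowest values of 0.50 for *Lypd3* and 0.45 for *Lypd5*, and neither reached 2-fold under any of them.

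*Ly6d*, a marker of stratified squamous epithelium and of early B-lineage cells, lies on chromosome 15 (minus strand, 74592551 to 74592610). Its intensity was 82555.5 ± 8256 in WT and 88275 ± 8827 in *Pnpla1*-/- skin, or 0.38 ± 0.20 on the log2 scale. *Slurp1* and *Ly6d*, both keratinocyte genes and 35.5 kb apart by their probes, therefore differed by 26.9-fold in one case and 1.30-fold, in the other direction, in the other. With spike-in centring the *Ly6d* difference was -0.05.

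*Ly6e*, a GPI-anchored protein induced by interferon, was the highest of the 10 genes. Its intensity was 6839 ± 684 in WT and 13619.9 ± 1362 in *Pnpla1*-/- skin (chromosome 15, plus strand, 74789592 to 74789651), 2.42-fold higher after scaling, a log2 difference of 1.28 ± 0.20. It stayed above 0 under all 12 other settings and at least 2-fold higher under 10 of them, with the lowest value of 0.85 under spike-in centring. *Ly6a*, known as Sca-1, a surface marker of blood stem cells that is also found on endothelium, had intensities of 9621 ± 962 and 10512 ± 1051 (minus strand, 74825553 to 74825612), a difference of 0.41 ± 0.20. *Ly6c1*, a marker of monocytes and endothelium, gave 0.44 ± 0.20 at its brighter probe (22325 ± 2233 and 24928 ± 2493, minus strand, 74875495 to 74875554). The dimmer *Ly6c1* probe, 1949 ± 195 in WT and 1996 ± 200 in *Pnpla1*-/- skin (74877785 to 74877844), gave 0.32 ± 0.20. The values of the *Ly6c1* probes thus lay closer together than the scanner error of either, but farther apart than the median technical SD of 0.08. Under spike-in centring *Ly6a* was at -0.02 and *Ly6c1* at 0.02.

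*Ly6g6c* and *Ly6g6d* are neighbouring genes for GPI-anchored proteins in the class III region of the major histocompatibility complex, and their differences were unlike in size, with opposite signs in the processing used. *Ly6g6d* (chromosome 17, minus strand, 35208353 to 35208412) had intensities of 2437 ± 244 in WT and 846 ± 84.7 in *Pnpla1*-/- skin, 2.37-fold lower after scaling, a difference of -1.24 ± 0.20. *Ly6g6c* (plus strand, 35206934 to 35206993), at -1.42 kb along the chromosome from the *Ly6g6d* probe, had 95003 ± 9500 and 97530.3 ± 9753, a difference of 0.32 ± 0.20. *Ly6g6d* was at least 2-fold lower under all 12 other settings, from -1.67 to -1.15, while *Ly6g6c* was at -0.11 under spike-in centring. Within 500 kb of *Ly6g6d*, 62 genes with a symbol outside the family list had a difference, of which 14 were at least 2-fold higher, beside 6.7% of all genes, and 1, *Atp6v1g2* at -1.20, was at least 2-fold lower, beside 3.04%. The 3 other family genes with a difference there were *Ly6g6c*, *Ly6g6e* at 0.16 and *Ly6g5b* at 0.21. *Pnpla1* is on the same chromosome.

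*Ly6k*, which is known from testis and sperm, gave a dim signal on both arrays. Its intensity was 88.3 ± 10.1 in WT and 75.9 ± 8.81 in *Pnpla1*-/- skin (chromosome 15, minus strand, 74627529 to 74627588). The log2 difference of 0.06 ± 0.24 was within the technical SD, and it fell below 0 under 5 of 12 other settings. The probe, dim-signal and outlier rules among the 12 could not move it, and the deposited ratios nearly repeat the scaling used.

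**Figure D2:**
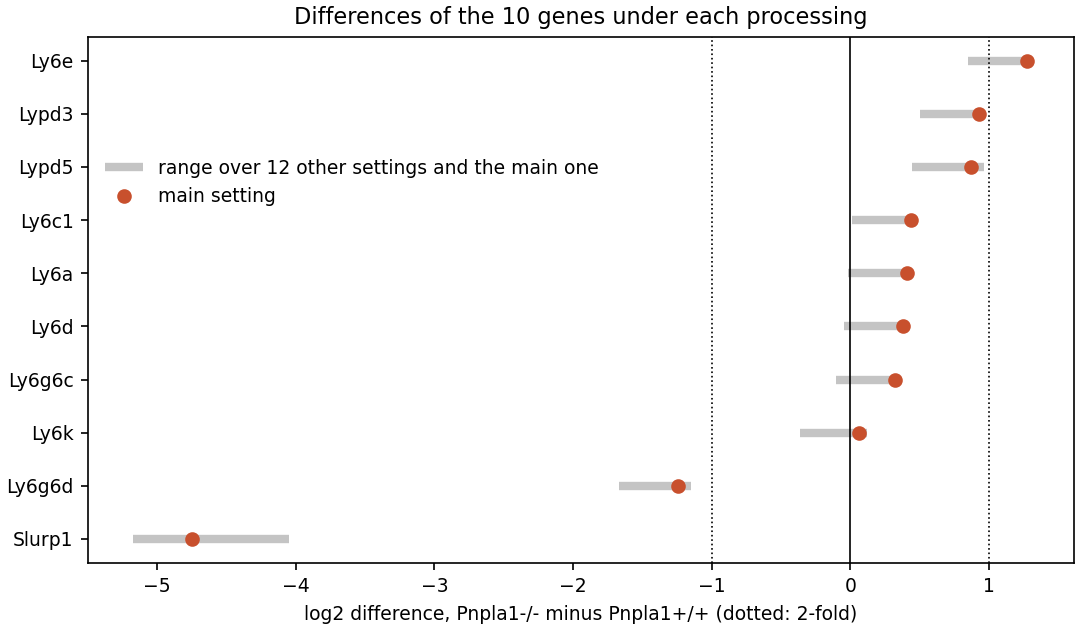
Log2 difference of *Pnpla1*-/- minus *Pnpla1*+/+ skin (x axis) for the 10 genes, with a point for the main processing, a grey bar for the range over 12 other settings and dotted lines at 2-fold. *Slurp1* and *Ly6g6d* stayed below the lower dotted line throughout, and the bars of *Ly6a*, *Ly6d*, *Ly6g6c* and *Ly6k* cross 0.

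The rest of the Ly6/uPAR family was followed through a list of 47 other genes, of which 39 had a probe, 24 had a difference or a bound and 15 were not well above background on either array. Of the 24, 4 were higher by 2-fold or more, beside 6.7% of all genes, and 3 lower by 2-fold or more, beside 3.04%, and their median was 0.19, which was -0.26 with spike-in centring.

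The secreted partner of *Slurp1*, *Slurp2*, was among the 3 lower genes. Its intensities were 2213 in WT and 470.4 in *Pnpla1*-/- skin, 3.87-fold lower after scaling, a log2 difference of -1.95 that stayed between -2.38 and -1.83 under the other settings. Thus both secreted SLURP genes were lower, beyond 2-fold under all 12 settings. The probe, dim-signal and outlier rules among these could not move either gene, since each had 1 probe well above background on both arrays. *Lynx1*, whose product is a GPI-anchored modulator of nicotinic receptors in neurons, was at -0.13 (1020 and 768) at the brighter probe, and its other probe was not well above background. *Lypd6*, another modulator of nicotinic receptors that also acts in Wnt signalling, went from 560 to 228, a difference of -1.01, but its dimmer probe gave -0.01 (82.7 and 67.4). The size of the *Lypd6* difference therefore depends on the probe, and with the mean over probes it was -0.51. *Lypd6b*, averaged over 10 spots, was at 0.47. *Pate9* was well above background in WT skin only (62.7 and 8.38), with a bound of 2.37-fold below WT that did not hold under normexp, where its log2 value was -0.34, against -2.62 with no filter on dim probes. *Cd59b*, also well above background in WT skin only (39.8 and 20.7), was lower by at least 1.51-fold in the processing used. It had a difference or a bound under only 10 of the 12 other settings.

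*Gml*, named for a GPI-anchored molecule-like protein, was the highest. Its brighter probe read 32.7 in WT and 385 in *Pnpla1*-/- skin, 14.3-fold higher or 3.84 on the log2 scale, and the other probe, which overlaps the first on the genome, gave 3.22 (33.9 and 259.6). Both probes were dim in WT skin, and normexp background correction lowered the value to 2.39. Its neighbour *Gml2* was at 1.48 (77.4 and 177). *Plaur*, the urokinase receptor, went from 1550 to 3161, a difference of 1.31, and *Pinlyp*, a relative of secreted phospholipase inhibitors, from 1920.3 to 3880.3, a difference of 1.30. *Gml* and *Gml2* stayed at least 2-fold higher under all 12 other settings and *Plaur* and *Pinlyp* under 11. *Plaur* and *Pinlyp* lie between *Lypd5* and *Lypd3* on chromosome 7, 122 and 188 kb from the *Lypd5* probe, and the differences of the 4 genes ran from 0.87 to 1.31. Within 500 kb of *Lypd5*, 22 genes with a symbol outside the family list had a difference, with a median of 0.19. Of these, 3 were at least 2-fold higher, beside 6.7% of all genes, and none at least 2-fold lower, beside 3.04%. Among the 3 was *Cd177*, which also has LU domains.

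The other members of the list had differences or bounds under 2-fold. Above 0 were *Ly6i* at 0.91, *Ly6f* at 0.65, *Ly6h* at 0.64, *Pate12* at 0.42, *Ly6g*, a neutrophil marker, at 0.42, *Ly6g5b* at 0.21, *Spaca4* at 0.17, *Lypd1* at 0.16 and *Ly6g6e* at 0.16. Below 0 were *Ly6m* at -0.49, *Cd59a*, an inhibitor of complement, at -0.41, *Lypd2* at -0.21 and *Gpihbp1*, which holds lipoprotein lipase on capillaries, at -0.04. *Psca* was well above background in *Pnpla1*-/- skin only, at least 1.34-fold higher. With spike-in centring *Ly6g*, *Pate12*, *Ly6g5b*, *Spaca4*, *Lypd1* and *Ly6g6e* were below 0, and the last 4 of these also with no scaling.

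**Figure D3:**
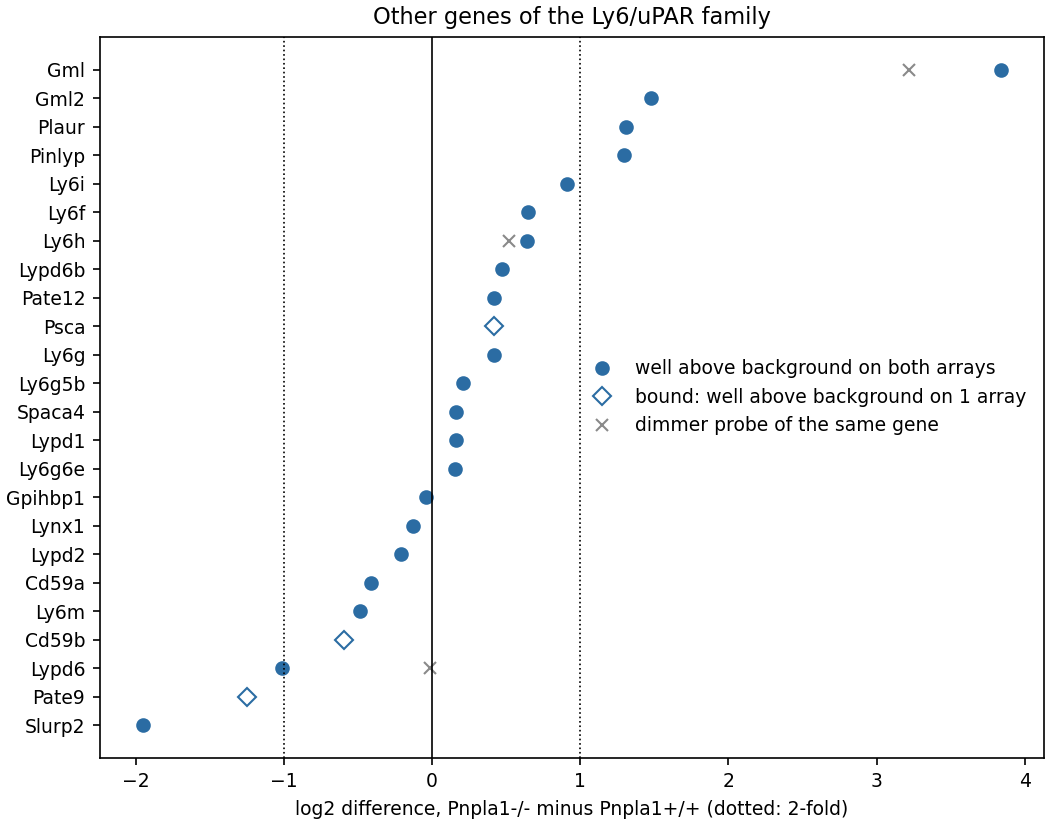
Log2 difference of *Pnpla1*-/- minus *Pnpla1*+/+ skin (x axis) for 24 other Ly6/uPAR genes, with filled points for genes well above background on both arrays, open diamonds for bounds, crosses for dimmer probes and dotted lines at 2-fold. *Gml* lies at 3.84 and *Slurp2* at -1.95, and the probes of *Lypd6* lie apart.

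Along chromosome 15 the large difference of *Slurp1* was not shared by the genes around it. Within 500 kb of its probe, 14 other genes of the family list and 4 genes with a symbol outside it, *Ly6a2* among them, had a difference. *Slurp2*, 16.2 kb away, was the 1 gene among these that was at least 2-fold lower, beside 3.04% of all genes. None of the 6 probes there with a difference but no symbol was at least 2-fold lower. At least 2-fold higher were 3 of the 14 family genes and 3 of the 10 genes and probes outside the list, beside 6.7% of all genes. Between *Slurp1* and *Slurp2* lies *Lypd2*, 5.60 kb from *Slurp1*, which went from 438 to 311, a difference of -0.21. On the far side of *Slurp2*, *Lynx1*, at 21.3 kb, was at -0.13. On the other side, *Them6*, at -3.18 kb, and *4933427E11Rik*, at -16.8 kb, were dim on both arrays, with no difference given, and *Psca*, at -10.2 kb, had the bound given above. The measured genes from *Slurp1* to *Lynx1* were thus all lower. *Lypd2* and *Lynx1* stayed below 0 under all 12 other settings, short of 2-fold. Farther along, the differences followed no order, since *Gml* at 87.2 kb and *Ly6e* at 233 kb were higher while *Ly6m*, between them at 152 kb, was at -0.49. Outside the list, *Arc*, an immediate early gene at -57.5 kb, had the largest difference, 2.60 (127 and 637).

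**Figure D4:**
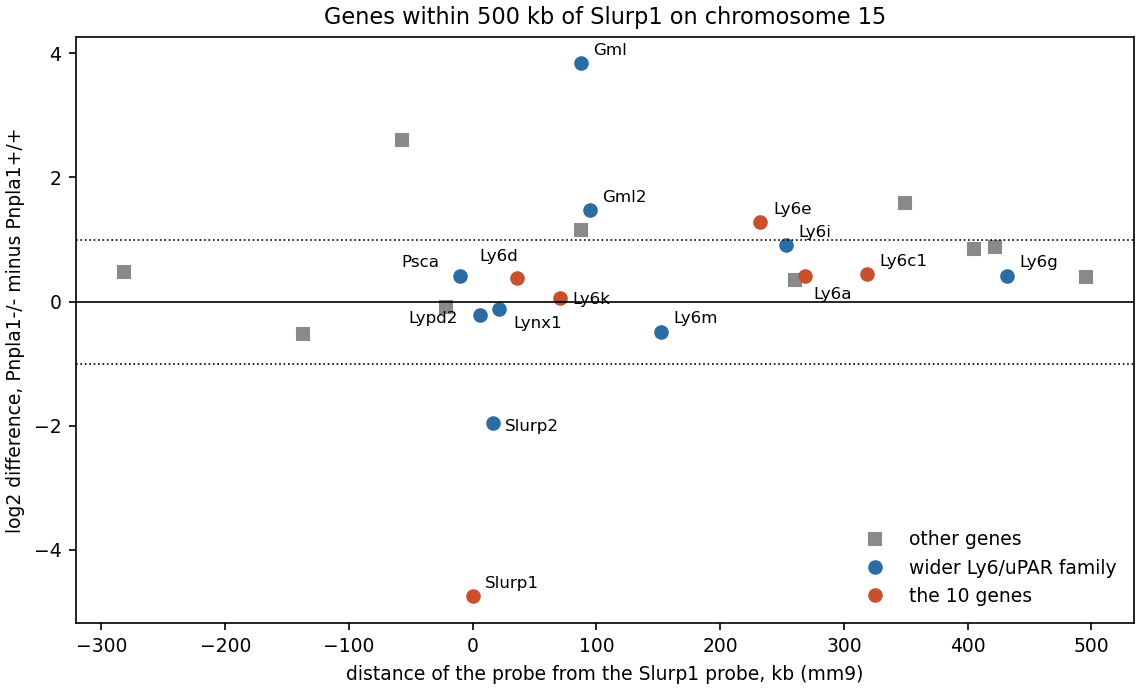
Log2 difference of *Pnpla1*-/- minus *Pnpla1*+/+ skin (y axis) against the distance of each gene's probe from the *Slurp1* probe in kb (x axis), for genes and probes with no symbol within 500 kb that had a difference or a bound, and dotted lines at 2-fold. *Slurp1* at -4.75 and *Slurp2* at -1.95 lie below the dotted line, and *Lypd2* between them lies at -0.21.

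No promoter sequence of *Slurp1*, *Ly6d*, *Ly6e*, *Ly6a* or *Ly6k* was used. For 5 of the 10 genes RefSeq windows on GRCm38.p6, from 250 bases before to 50 after a start, were searched on both strands for motifs that included CACCC, a core of KLF sites, TGANTCA (AP-1), an NF-kappaB type motif and TATAAA. *Lypd3* and *Lypd5* are shown because both lay just under 2-fold higher, as the 250 bases before the start on the plus strand, with every match in capitals (GGGTG is CACCC on the other strand).
Lypd3, chr7:24636320-24636569: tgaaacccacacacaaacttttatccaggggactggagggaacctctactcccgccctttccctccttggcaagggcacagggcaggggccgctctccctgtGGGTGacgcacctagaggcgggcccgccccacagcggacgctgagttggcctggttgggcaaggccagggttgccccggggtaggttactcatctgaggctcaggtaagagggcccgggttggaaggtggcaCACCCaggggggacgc
Lypd5, chr7:24348946-24349195: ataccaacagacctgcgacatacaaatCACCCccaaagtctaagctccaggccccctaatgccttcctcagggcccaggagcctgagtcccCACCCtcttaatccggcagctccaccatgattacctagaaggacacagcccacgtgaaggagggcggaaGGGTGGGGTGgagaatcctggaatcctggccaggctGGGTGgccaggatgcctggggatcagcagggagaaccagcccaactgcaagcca
CACCC occurred 2 times before *Lypd3* and 5 times before *Lypd5*, where a pair of matches adjoin, and the motif was in 57.5% of 32851 windows of the same length. *Ly6g6c* had 1 TATAAA and no CACCC, beside 13.6% of all windows with TATAAA. *Ly6g6d* had 3 windows with 0, 1 and 2 matches of CACCC and none of the other motifs, and *Ly6c1* had 2 windows, one with 3 matches of CACCC and one with 1 TATAAA. No window of the 5 genes held TGANTCA or the NF-kappaB type motif, which occurred in 7.81% and 1.63% of all windows. A match is a description of these letters and not a site.

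By the distance between the scaled log2 levels of their probes on the 2 arrays, the genes placed nearest to *Slurp1* were *Chga* (4472 and 133, distance 0.43), *Adh6a* (2646 and 94.95, 0.48), *Fmo2* (3137 and 149.7, 0.49), *Krt72* (2583 and 199.5, 0.99) and *Pla2g5* (1764 and 62.5, 1.30). *Chga* encodes chromogranin A of secretory granules, *Krt72* a keratin of the inner root sheath of the hair follicle, and *Pla2g5* a secreted phospholipase. The distance depends on how strongly each probe binds as well as on the difference, and it uses the *Slurp1* values by which the set was chosen, so it is a position on these arrays only.

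Genes that act with the family were counted from lists, and each count in a list stands beside the shares of all genes past 2-fold, 6.7% for higher and 3.04% for lower. Of 26 acetylcholine receptor and enzyme genes, 17 had a difference, none was at least 2-fold higher and 1 was at least 2-fold lower, with a median of 0.08. This was *Chrna3*, a nicotinic receptor subunit, well above background in WT skin only (101 and 5.64), with a bound of 3.81-fold below WT. That bound did not hold under normexp, where *Chrna3* was at -0.60, less than 2-fold lower. The muscle subunits *Chrna1* and *Chrnd*, with the brightest probes of the list, were at -0.32 and 0.24. *Chrna7*, a receptor on which SLURP1 is known to act, was dim, with intensities of 35.2 and 29.6, and well above background in WT skin only, with no fold. *Chrna9*, another subunit found in keratinocytes, was at 0.13 (534 and 479).

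Of 11 genes of plasminogen activation and its integrin partners, 1 was at least 2-fold higher, the protease inhibitor *Serpinb2*, which went from 4853 to 14124, a difference of 1.82, and none was at least 2-fold lower. *Plau*, urokinase itself and the ligand of *Plaur*, was just under 2-fold, at 0.99 (230.1 and 375). The median of these genes was -0.04, and the integrins *Itga6* and *Itgb4* were at 0.16 and -0.05. Of 27 genes of GPI anchor synthesis with a difference, 1 was at least 2-fold higher, *Gpld1*, a phospholipase that cuts GPI anchors, at 1.28 (68.7 and 137) but 0.85 with spike-in centring, and none was at least 2-fold lower, with a median of 0.14. *Dpm3* and *Pigq* were at -0.33 and 0.05. With spike-in centring the median of the acetylcholine list was -0.37, that of the plasminogen list -0.47 and that of the GPI list -0.29. Over the settings, 1 to 2 of the plasminogen genes were at least 2-fold higher.

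*Ly6e*, *Ly6a* and *Ly6c1* respond to interferon, and the interferon-stimulated list was higher as a whole. All 18 genes lay above 0 under every setting, 16 were at least 2-fold higher (14 to 16 over the settings), and the median was 1.94, with 1.52 as the lowest over the settings. *Cxcl10* was at 3.64 (769 and 7903), or 2.53 with the mean over its probes, *Ifit1* at 2.96 and *Mx1* at 2.76, with *Isg15* at 1.92 and *Bst2* at 1.40. Their summed scaled level was 11.98 in WT and 43.1 in *Pnpla1*-/- skin, 3.60 times as high. *Ly6e* at 1.28, *Ly6c1* at 0.44 and *Ly6a* at 0.41 lay below the median of the list. With spike-in centring *Ly6e* was at 0.85, *Ly6c1* at 0.02 and *Ly6a* at -0.02. The part of interferon in these genes was not tested.

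*Ly6a* and *Ly6c1* also mark endothelium, where 1 of 10 genes, *Vwf* at 1.35, was at least 2-fold higher, with a median of 0.33. Under spike-in centring *Vwf* was at 0.93 and the median at -0.09. *Egfl7* and *Cldn5*, with the brightest probes of the list, were at 0.30 and -0.10, and the summed scaled level was 23.4 and 30.4. Of 15 leukocyte markers, of which 1 is *Ly6g*, 8 were at least 2-fold higher and none at least 2-fold lower, with a median of 1.37 and a summed scaled level of 22.4 in WT and 251 in *Pnpla1*-/- skin. *S100a8* at 6.26 and *S100a9* at 4.67, which keratinocytes also make under stress, gave most of the sum in *Pnpla1*-/- skin. *Cxcr2* was well above background in *Pnpla1*-/- skin only, with a bound of 59.8-fold above WT in the processing used and a log2 value of 4.31 under normexp, while *Csf1r* and *Itgam*, with the brightest probes in WT skin, were at 0.67 and -0.03. *Cd207*, a Langerhans cell marker, was at background level on both arrays. The part of endothelial and leukocyte RNA in *Ly6a*, *Ly6c1* and *Ly6e* was not tested.

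SLURP1 is made in the upper layers of the epidermis. Of 18 granular layer genes, 3 were higher and 2 lower by 2-fold or more, with a median of 0.15. Like *Slurp1*, the filaggrin relative *Flg2* was much lower, from 20467 to 198, a difference of -6.41, and *Krt77*, above background in WT skin only, had a bound of 4.58-fold below WT that did not hold under normexp, with -0.94. *Tgm3* at 2.12, *Dsc1* at 1.20 and *Klk7* at 1.05 were higher, but *Tgm3* was at 1.07 with the mean over its probes and *Dsc1* and *Klk7* were at 0.77 and 0.63 with spike-in centring, and *Krt10* and *Krt1*, with the brightest probes, were at 0.20 and 0.10. The summed scaled level of the list was 510.2 in WT and 541 in *Pnpla1*-/- skin. With spike-in centring its median was -0.27. Among 7 basal genes *Krt14* was at 1.35 (0.92 with spike-in centring), *Krt15* at -1.67 and *Krt5* at 0.22.

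All 10 hair follicle markers were lower, by a median of -0.96 and with 5 at least 2-fold lower, *Krt31* at -1.47, *Krt35* at -1.33, *Krt28* at -1.23, *Krt27* at -1.10 and *Hoxc13* at -1.01, which was -0.91 under normexp. Over the settings, 4 to 8 of them were at least 2-fold lower. *Krt71* and *Tchh*, with the brightest probes of the list, were at -0.82 and -0.48, and the summed scaled level was 101 and 56.0. *Krt72*, a hair follicle keratin that was not in the list, was at -3.41. It is named because its levels were among those nearest to *Slurp1*, so its low value follows from that choice. The part of hair follicle RNA in *Slurp1* and *Slurp2* was not tested. Fibroblast genes had a median of -0.16, or -0.58 with spike-in centring, with *Col1a2* at -0.17 and *Col3a1* at 0.01. Muscle genes had a median of 0.02, or -0.41 with spike-in centring, with *Acta1* at 0.05 and *Myh8* at 0.28. Neither list had a gene at least 2-fold changed in the processing used. Over the settings, up to 1 fibroblast gene was at least 2-fold lower.

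**Figure D5:**
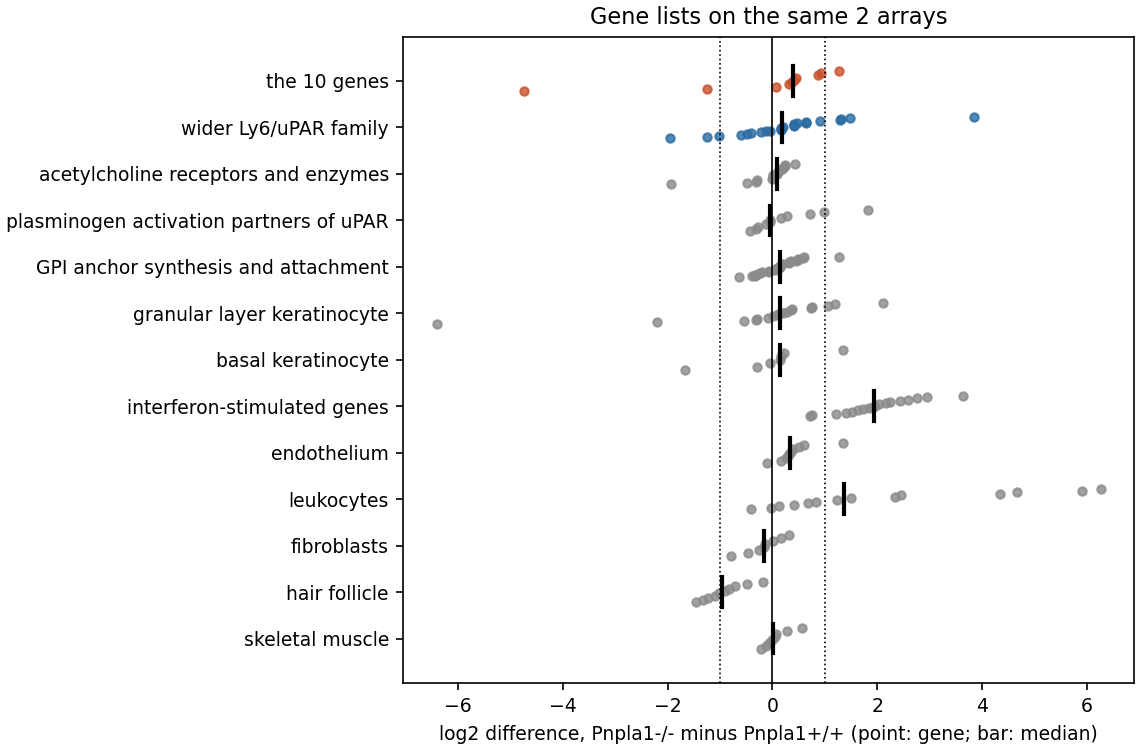
Log2 difference of *Pnpla1*-/- minus *Pnpla1*+/+ skin (x axis) for each gene of each list, bounds included, with a black bar at the median of the list and dotted lines at 2-fold. The interferon-stimulated genes lie around a median of 1.94, while 7 of the 10 genes lie between 0 and 1 and *Slurp1* stands far to the left.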

How the data were processed

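The arrays were 1-colour (Cy3) Agilent mouse arrays with probe coordinates on mm9. Per the file headers, the authors read the images with Agilent Feature Extraction 11.5.1.1, and the deposited intensity of a spot is on a linear scale, with background and spatial trend removed and no scaling between arrays. They also deposited a ratio of this intensity to a single divisor (2109 on the WT and 1734 on the knockout array), which was used as an alternative. Of 43020 spots other than controls, 71.7% and 73.3% were well above background and none was saturated. The number of arrays limits the precision.

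Here log2 of the intensity minus log2 of the array's 75th percentile was computed in Python 3.11.15 with pandas 2.3.3, with 138 and 82 outlier-flagged spots left out, spots of a probe averaged, and each gene represented by its brightest probe. Where only 1 array was well above background, a bound is given, with the dim array taken at its own signal or at the dimmest signal marked as above background there, whichever was higher. Of 39429 probes, 31456 matched the RefSeq table of GRCm38.p6, which was used for names and promoter sequences only, and 7973 probes with no match count as genes under the name in the scanner output. The computation was tested on simulated data. Both arrays sat on 1 slide, so no term for it could be fitted.

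Alternatives were other scalings (median, none, bright probes, quantile, cyclic loess, spike-in RNA), normexp (offset 50; limma 3.58.1, R 4.3.3), the deposited ratios, other probe and background rules, and other fold thresholds. Besides the 10 genes, the genes named are the measured family genes, the 2 with the brightest probes and the at least 2-fold changed genes of each of 11 other lists (the 3 largest each way where there were more than 6), the 5 nearest to *Slurp1* and its neighbours. *Plau*, *Chrna7*, *Chrna9*, *Arc*, *Atp6v1g2*, *Cd207*, *Lor*, sex-linked genes, the genes given under other observations and the 500 kb window were added after values were seen. The genes and lists were chosen with earlier results of these data known. One gene is not reported here.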

Additional observations from a re-analysis of the deposited data

How the results depend on the processing

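*Slurp1*, *Ly6g6d*, *Lypd3*, *Lypd5*, *Ly6c1* and *Ly6e* kept their direction under the 12 other settings, and *Ly6a*, *Ly6d*, *Ly6g6c* and *Ly6k* did not. For a gene with 1 unflagged probe well above background on both arrays, the probe, dim-signal and outlier rules cannot change the value. The deposited ratios nearly repeat the main scaling. Agreement under those settings therefore adds nothing for such genes. In the processing used, 3.04% of genes were at least 2-fold lower and 6.7% higher. Centring on spike-in RNA moved the median of all genes by -0.43. It gave -2.49 for *Pnpla1*, -5.17 for *Slurp1*, a median of -0.032 over the 10 genes, 0 of them at least 2-fold higher, and 9.68% of all genes lower and 3.74% higher. With no scaling the median of all genes moved by -0.28, and the same results were -2.35, -5.03, 0.11, 0, 6.37% and 4.47%. Normexp gave -1.51 for *Pnpla1*, -4.05 for *Slurp1*, and 1.45% of genes lower and 4.34% higher. Cyclic loess gave -4.66 for *Slurp1*, and quantile normalization a median of 0.29 over the 10 genes. Without a filter on dim probes 3.67% of genes were lower and 10.1% higher, over 30133 genes in place of 22374. At 1.5-fold, 3 of the 10 genes were higher, with 9.35% of all genes lower and 13.8% higher, and at 3-fold 1 was lower and 0 higher, with 1.02% and 3.06%. The share of higher genes among all 2-fold changed genes was 68.8%, against 27.9% with spike-in centring, 41.2% with no scaling and 58.8% with quantile normalization. A scaling by 1 factor moves every gene by the same amount, and which scaling matches the RNA in the skin was not tested. No paired analysis was possible because each genotype had 1 array, and for the same reason no array could be left out. Dim values, as for *Ly6k* and for *Gml* in WT skin, are limited by signal over background.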

Other observations

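Chromosome 17 around *Ly6g6d* and *Ly6g6c* held other genes with large differences, none of them in the family list. Among genes within 500 kb of the *Ly6g6d* probe, the highest was *Psors1c2*, next to the corneodesmosin gene *Cdsn*, with intensities of 3766 (WT) and 43771 (knockout) and a log2 difference of 3.82, while *Cdsn* itself was at 0.38. The complement genes *Cfb* and *C4b* were at 3.29 and 2.82, and *C2* was at 1.33. The cytokine genes *Tnf* and *Ltb* were at 2.75 and 1.71. The class I genes *H2-D1*, *H2-Q5* and *H2-Q7* were at 1.77, 2.34 and 1.86, whereas *H2-Q4* was at 0.02, and class I genes are close in sequence. On chromosome 15, *Ly6a2*, which carries a family name but was in none of the lists, was at 0.85 (47.9 and 70.8). On chromosome 7, *Cd177*, a neutrophil surface gene of the LU domain family, passed the background on the knockout array alone (9.06 and 51.7), with a log2 bound of 1.39. These genes were chosen after their values were seen, and none has a replicate between mice.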
